A study of Mus musculus with 6 samples.

Results

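The insulin and IGF signaling genes described here are 9 genes taken by symbol from the 54532 genes of the deposited table: the ligand Igf1, the receptors Igf1r and Insr, the receptor substrates Irs1 and Irs2, and the binding proteins Igfbp3, Igfbp4, Igfbp5 and Igfbp6. Each symbol matched 1 row. All 9 had a mean of at least 1 FPKM (fragments per kilobase of gene, scaled by a factor for each library), the level required for testing. Messenger RNA was sequenced from hearts of Ythdc1flox/flox mice (flox control, 3 libraries) and Ythdc1-CKO mice (CKO, 3 libraries). Where 3 values of a group are given, they run in the order of the replicate numbers 1, 2 and 3. Mice of both groups received normal chow for 15 days, and the labels call the replicates of each group independent. Age, the part of Ythdc1 that was deleted, the Cre driver and the sex of the mice are not given in the sources used here, and the deleted mice are called HKO in the series text but CKO in the labels. YTHDC1 is a nuclear protein that binds N6-methyladenosine, a modified base of messenger RNA, and the question is how heart transcript levels change with deletion of its gene.

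Insulin and the insulin-like growth factors act through a pair of related receptor tyrosine kinases. INSR binds insulin with high affinity, and IGF1R binds IGF-I. Both phosphorylate the docking proteins IRS1 and IRS2, which recruit PI3K and so activate AKT, mTORC1 and glucose uptake. IGF binding proteins are secreted, hold IGF-I outside the cell and can limit or prolong its action. In heart, this pathway is known for its part in postnatal growth of cardiomyocytes and in glucose use.

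Facts of the series that touch these results come next. Reads assigned to genes, recovered from the FPKM values, numbered 17434296 to 19360428 per library. Ythdc1 measured 3.64 to 4.31 FPKM in flox controls and 2.34 to 2.57 FPKM in CKO libraries (log2 fold change -0.54, limma adjusted p = 0.015). Sex-linked expression set CKO 3 apart: Xist had 4037 reads there and 0 to 5 elsewhere, while the Y-linked gene Ddx3y stood at 0.350 FPKM there and 10.8 to 15.9 FPKM elsewhere. The summed FPKM of 6 atrial cardiomyocyte markers was 75.5 in flox control 2 against 227 and 306 in flox controls 1 and 3, and 35.8 to 56 in CKO libraries. The summed FPKM of 10 macrophage and monocyte markers was 897 in CKO 1 against 126 to 304 in the other libraries. All 10 cardiomyocyte markers were present, with a summed level of 14570.5 to 16108 FPKM in flox controls and 11393.5 to 15603 FPKM in CKO libraries. Fold changes were negative for 9 of these 10, and Tnni3, the cardiac troponin I gene, was called lower (log2 fold change -0.73, limma adjusted p = 0.0314). Of the 6 atrial markers, Sln was called lower (-2.68, 0.0436), while voom called 0 of them. These single calls stand beside 5.49% of all genes tested that were called lower. CKO 2 had the lowest FPKM sum (351431 against 398260 to 461435) and the lowest share of mitochondrial reads (14.4% against 18.4% to 21.02%). In tissue RNA, fewer cells of a type and less RNA per cell cannot be told apart. For each of the 9 genes, values without each of these 4 libraries are given below.

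Of the 9 genes, Igf1r was higher in CKO hearts and the other 8 did not pass the test (limma on log2(FPKM + 1), adjusted p under 0.05 over 12144 genes). None was called lower (5.49% of all genes tested were), where 0 also passed with limma voom on recovered reads and 0 had an unadjusted p under 0.05 with a negative fold change. Of all genes tested 11.2% were called in either direction and 5.69% as higher, so 1 of 9 (11.1%) lies at the background share. That background moved with the setting, from 2.59% without flox control 1 to 14% at a filter of 5 FPKM, and was 5.89% with the replicate block. Unadjusted p was under 0.05 for 4 of the 9 (Igf1r, Igfbp6, Insr and Igfbp3) and for 3365 of 12144 genes. Groups did not overlap for 3 of the 9, Igf1r, Insr and Igfbp6, against 34.3% of all genes tested, 16.9% with CKO higher. Fold changes were positive for 8 of the 9 and negative for Igfbp5, with a median of 0.33 on the log2(FPKM + 1) scale against 0.0076 over all genes tested.

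**Figure D1:**
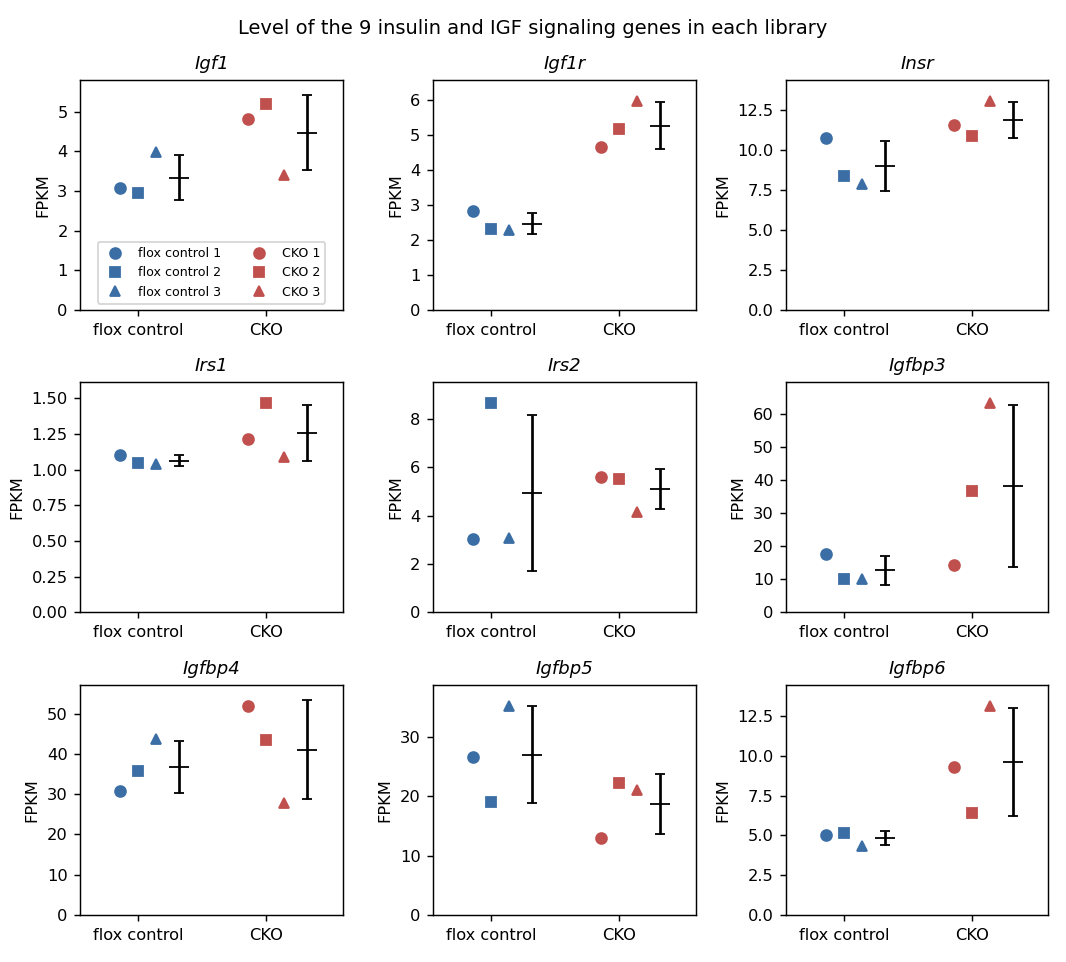
Level in FPKM (vertical axis, from 0) of each of the 9 genes in the 3 flox control and 3 CKO libraries; marker shapes give the replicate number, and black bars give the mean and SD of 3 libraries. Igf1r separates the groups by a wide margin, Irs2 has a single high flox control at 8.65 FPKM, and Igfbp3 runs from 14.4 to 63.2 FPKM among CKO libraries.

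Igf1r, which encodes the type 1 IGF receptor (ENSMUSG00000005533, GRCm38 chromosome 7, 67952827 to 68233668, plus strand, 21 merged exon blocks), measured 2.83, 2.31 and 2.29 FPKM across the flox controls, against 4.66, 5.19 and 5.99 FPKM across the CKO hearts. The lowest CKO library lay well above the highest control. Mean levels were 2.48 ± 0.309 FPKM in flox controls and 5.28 ± 0.674 FPKM in CKO hearts (SD, n = 3 each), a ratio of 2.13, from 680 to 1824 reads per library. The log2 fold change was 0.85 (SE 0.11, 95% interval 0.58 to 1.12, limma adjusted p = 0.00929). The exact two-sided permutation p was 0.1, the lowest that the 20 arrangements of 3 against 3 libraries can give. The call held without each library in turn, with adjusted p from 0.00889 to 0.0404, and under every other alternative that tested the gene, where adjusted p was 0.00632 to 0.0369. Log2 fold changes (limma adjusted p) were 0.82 without flox control 2 (0.036), 0.92 without CKO 1 (0.00889), 0.86 without CKO 2 (0.0318) and 0.77 without CKO 3 (0.0338).

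Because Igf1r was the called member and Igfbp6 had the next smallest adjusted p, the 250 bases before their RefSeq start sites (GRCm38.p6) are shown, with matches to the GC box letters GGGCGG on either strand in capitals. The Igf1r window is chr7:67952007-67952256 (plus strand) and that of Igfbp6 is chr15:102143936-102144185 (plus strand). These RefSeq start sites differ from the GENCODE M21 gene starts, 67952827 for Igf1r and 102144362 for Igfbp6. Windows at the GENCODE starts were not searched.
Igf1r: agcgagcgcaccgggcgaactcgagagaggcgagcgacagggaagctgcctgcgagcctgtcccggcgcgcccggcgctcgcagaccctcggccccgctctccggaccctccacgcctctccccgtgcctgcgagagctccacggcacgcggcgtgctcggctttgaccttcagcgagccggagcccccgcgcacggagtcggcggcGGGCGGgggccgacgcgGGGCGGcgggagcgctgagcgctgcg
Igfbp6: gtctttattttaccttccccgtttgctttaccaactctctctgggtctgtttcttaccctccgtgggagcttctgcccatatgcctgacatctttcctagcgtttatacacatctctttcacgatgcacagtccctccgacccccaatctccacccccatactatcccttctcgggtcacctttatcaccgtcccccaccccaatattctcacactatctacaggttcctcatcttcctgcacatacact
The Igf1r window is 77.6% G and C and holds 2 GC boxes, while the Igfbp6 window is 49.6% G and C and holds 0. The median over 32851 promoter windows of this length was 52.4%, and 32.7% of them held a GC box. The RefSeq table gave windows for 8 of the 9 genes, Insr being the missing entry. The Igf1 window lies inside the GENCODE bounds of that gene. GC boxes were also found before Irs1 (2) and Irs2 (1), and an E-box (CACGTG, in 6.02% of all windows) before Irs1 and Irs2. CCAAT letters (33.8% of all windows) were found in the Igfbp6 window (2) and before Irs2 (2) and Igf1 (1). None of the 8 windows held the forkhead letters GTAAACA (3.17% of all windows), the amino acid response letters TGATGNAA (3.45%) or the cyclic AMP response letters TGACGTCA (1.55%), each searched on both strands. The FPKM values do not measure promoter activity.

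Insr, which encodes the insulin receptor (chromosome 8, 3122061 to 3279617, minus strand), was higher than Igf1r in every library but differed less between the groups. It measured 10.8, 8.37 and 7.86 FPKM across the flox controls, against 11.6, 10.9 and 13.1 FPKM across the CKO hearts. The groups did not overlap, though flox control 1 lay close to CKO 2. Mean levels were 9.0 ± 1.55 FPKM in flox controls and 11.9 ± 1.12 FPKM in CKO hearts (SD, n = 3 each), and the log2 fold change of 0.37 (95% interval 0.06 to 0.69) did not pass (limma adjusted p = 0.125). It was (limma adjusted p in parentheses) 0.33 without flox control 2 (0.261), 0.38 without CKO 1 (0.166), 0.43 without CKO 2 (0.159) and 0.30 without CKO 3 (0.28).

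The ratio of the receptor transcripts was nearly constant within each group. The level of Igf1r relative to Insr, both in FPKM, was 0.263, 0.275 and 0.291 across the flox controls, against 0.402, 0.476 and 0.458 across the CKO hearts. The ranges of the groups are separated by more than the range within either. On the log2 scale the ratio was -1.86 ± 0.073 in flox controls and -1.17 ± 0.128 in CKO libraries (SD, n = 3 each), a difference of 0.68 that is given as a description with no test. With 1 FPKM added to each level the difference was 0.48, again with no overlap.

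**Figure D2:**
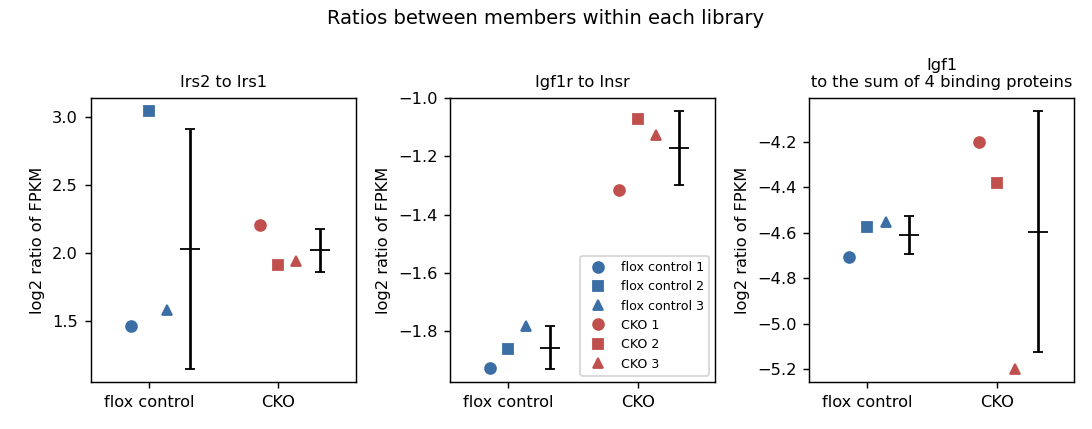
Log2 ratios of FPKM within each library (vertical axes, each with its own range) for Irs2 to Irs1, Igf1r to Insr, and Igf1 to the summed FPKM of Igfbp3, Igfbp4, Igfbp5 and Igfbp6; black bars give the mean and SD of 3 libraries. Only the Igf1r to Insr ratio separates the groups, at -1.93 to -1.78 in flox controls and -1.32 to -1.07 in CKO libraries.

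The receptor substrates did not pass the test. Irs1 (chromosome 1, 82233101 to 82291416, minus strand) was the lowest of the 9 genes in both groups, at 1.11, 1.05 and 1.04 FPKM across the flox controls, against 1.22, 1.47 and 1.09 FPKM across the CKO hearts. The controls were close together (coefficient of variation 3.54%), and CKO 3 fell among them. The log2 fold change was 0.13 (95% interval -0.14 to 0.40, limma adjusted p = 0.523), from 168 to 261 reads per library. Values (limma adjusted p) were 0.12 without flox control 2 (0.625), 0.14 without CKO 1 (0.546), 0.06 without CKO 2 (0.805) and 0.18 without CKO 3 (0.42). Gm9747, listed at 0, shares 30.9% of the Irs1 exon bases on the opposite strand. How reads there were counted is not given in the sources used here, so the Irs1 level is uncertain to that extent.

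Irs2 (chromosome 8, 10984681 to 11008458, minus strand) measured 3.04, 8.65 and 3.09 FPKM across the flox controls, against 5.61, 5.53 and 4.17 FPKM across the CKO hearts. Flox control 2 was the highest of all 6 libraries, while the other controls were the lowest. Irs2 had a log2 fold change of 0.16 (95% interval -0.65 to 0.97, limma adjusted p = 0.805). It was 0.58 without flox control 2 (limma adjusted p = 0.0768) and turned to -0.05 without flox control 1 (0.959) and -0.04 without flox control 3 (0.962). Further values (limma adjusted p) were 0.10 without CKO 1 (0.893), 0.11 without CKO 2 (0.902) and 0.28 without CKO 3 (0.717). Flox control 2 is the control with the low atrial marker sum, whose part in the Irs2 value was not tested. The level of Irs2 relative to Irs1 was 2.75, 8.27 and 2.98 across the flox controls, against 4.61, 3.77 and 3.84 across the CKO hearts, with the CKO values inside the control range.

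The ligand gene Igf1 (chromosome 10, 87858265 to 87937042, plus strand) measured 3.08, 2.94 and 3.99 FPKM across the flox controls, against 4.82, 5.21 and 3.40 FPKM across the CKO hearts. CKO 3 fell inside the control range and the other CKO libraries above it. Mean levels were 3.34 ± 0.568 FPKM in flox controls and 4.48 ± 0.949 FPKM in CKO hearts (SD, n = 3 each), and the log2 fold change of 0.33 (95% interval -0.05 to 0.71) did not pass (limma adjusted p = 0.235). Without single libraries it was (limma adjusted p in parentheses) 0.27 without flox control 2 (0.43), 0.28 without CKO 1 (0.364), 0.23 without CKO 2 (0.465) and 0.48 without CKO 3 (0.103).

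Igf1 and Igfbp4 varied between libraries beside the fibroblast markers. Igfbp4 (chromosome 11, 99041244 to 99054392, plus strand), a binding protein whose cleavage by PAPP-A releases IGF, measured 30.8, 35.7 and 43.7 FPKM across the flox controls, against 52.0, 43.4 and 27.8 FPKM across the CKO hearts. The groups overlapped, and CKO libraries gave both the highest and the lowest value. The log2 fold change was 0.13 (95% interval -0.46 to 0.71, limma adjusted p = 0.786), with 0.11 without flox control 2 (0.853), -0.06 without CKO 1 (0.878), 0.06 without CKO 2 (0.919) and 0.38 without CKO 3 (0.269). The summed FPKM of 10 fibroblast markers was 732, 704 and 886 across the flox controls, against 1032, 944 and 770 across the CKO hearts. For Igf1, Igfbp4 and this sum alike, CKO 1, CKO 2 and flox control 3 were the 3 highest libraries. Single markers differed from the sum. CKO 2 was the highest library for Col1a1 (270 FPKM) and Col1a2 (136 FPKM). It was the lowest for Dcn (63.1 FPKM), Lum (37.5 FPKM) and Gsn (74.3 FPKM). Fold changes of the 10 markers were positive for 7 and negative for 3. Of the 10 fibroblast markers 1, Tcf21, was called higher by limma and none was called lower, beside 5.69% and 5.49% of all genes tested. None of the 10 was at 0 in all libraries, 4 had an unadjusted limma p under 0.05, and voom called 1. The part of fibroblast content in these levels was not tested.

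**Figure D3:**
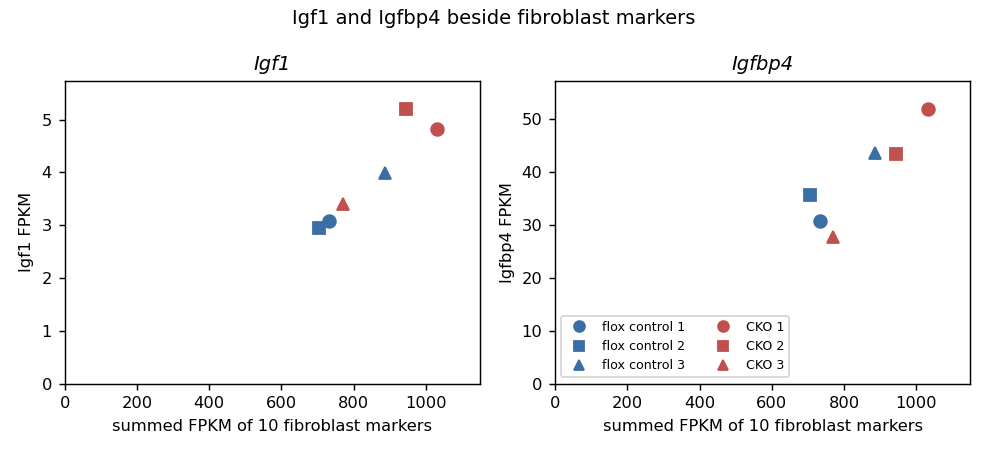
FPKM of Igf1 (left) and Igfbp4 (right) on the vertical axes against the summed FPKM of 10 fibroblast markers in the same library; 1 point per library, axes from 0. CKO 1, CKO 2 and flox control 3 lie at the upper right of both panels, and CKO 3 lies just above the other flox controls for Igf1 and below them for Igfbp4.

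Igfbp3 (chromosome 11, 7206086 to 7213923, minus strand), the main carrier of IGF in blood, had the largest fold change of the 9 genes and the widest spread. It measured 17.8, 10.2 and 10.2 FPKM across the flox controls, against 14.4, 36.6 and 63.2 FPKM across the CKO hearts. CKO 1 fell inside the control range, and CKO 2 and CKO 3 were far above it. Mean levels were 12.7 ± 4.36 FPKM in flox controls and 38.1 ± 24.4 FPKM in CKO hearts (SD, n = 3 each), a ratio of 2.99. The log2 fold change was 1.33 (SE 0.51, 95% interval 0.12 to 2.54) and did not pass (limma adjusted p = 0.147). Without CKO 1, the library with the high macrophage marker sum, it was 1.88 and passed (limma adjusted p = 0.0166). Other values (limma adjusted p) were 1.204 without flox control 2 (0.295), 1.24 without CKO 2 (0.284) and 0.85 without CKO 3 (0.293).

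Igfbp6 (chromosome 15, 102144362 to 102149511, plus strand), a binding protein that prefers IGF-II, measured 5.00, 5.12 and 4.33 FPKM across the flox controls, against 9.27, 6.38 and 13.2 FPKM across the CKO hearts. All CKO libraries were above all controls, with CKO 2 nearest to them. Mean levels were 4.82 ± 0.425 FPKM in flox controls and 9.60 ± 3.40 FPKM in CKO hearts (SD, n = 3 each), a ratio of 1.99, from 94 to 265 reads per library. The log2 fold change of 0.82 (SE 0.23, 95% interval 0.28 to 1.36) did not pass (limma adjusted p = 0.0658). It passed without CKO 2 (log2 fold change 1.05, limma adjusted p = 0.0297) and after scaling every library to the same FPKM sum (0.86, 0.0196). CKO 2 was the CKO library nearest to the controls and the one with the lowest FPKM sum. The scaling acts on every library, raising CKO 2 (divided by 0.838) and lowering CKO 3 (divided by 1.101), the highest library for Igfbp6. The part of single libraries in the scaled result was not tested. Other values (limma adjusted p) were 0.86 without flox control 2 (0.137), 0.82 without CKO 1 (0.102) and 0.58 without CKO 3 (0.105).

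Igfbp5 (chromosome 1, 72857932 to 72874884, minus strand), a binding protein that also attaches to extracellular matrix, was the member with a negative fold change. It measured 26.7, 19.0 and 35.3 FPKM across the flox controls, against 12.9, 22.3 and 21.01 FPKM across the CKO hearts. Flox control 2 fell among the CKO libraries. Igfbp5 had a log2 fold change of -0.50 (95% interval -1.15 to 0.16, limma adjusted p = 0.292), and it ranged from -0.72 to -0.26 as single libraries were left out. Values (limma adjusted p) were -0.72 without flox control 2 (0.173), -0.29 without flox control 3 (0.594), -0.26 without CKO 1 (0.523), -0.63 without CKO 2 (0.276) and -0.59 without CKO 3 (0.322).

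Among the binding protein transcripts, the share of Igfbp5 did not overlap between the groups, though its level did. Levels of 34.3% of all genes tested did not overlap between the groups. Summed over Igfbp3, Igfbp4, Igfbp5 and Igfbp6, levels were 80.3, 70.1 and 93.6 FPKM across the flox controls, against 88.7, 109 and 125 FPKM across the CKO hearts. Igfbp5 made up 27.1% to 37.7% of that sum in flox controls and 14.6% to 20.5% in CKO libraries, with no overlap. Igfbp3 made up 22.1%, 14.6% and 10.9% across the flox controls, against 16.2%, 33.7% and 50.5% across the CKO hearts. Igf1 stood at 0.0383, 0.0420 and 0.0426 of the sum across the flox controls, against 0.0543, 0.0479 and 0.0272 across the CKO hearts. The shares of Igfbp3, Igfbp4 and Igfbp6 overlapped between the groups. A share also depends on the other levels in the sum. In CKO 3, Igfbp5 measured 21.01 FPKM, above 19.0 FPKM in flox control 2, while Igfbp3 measured 63.2 FPKM. Its share was 16.8% in CKO 3 and 27.1% in flox control 2. These shares are descriptions with no test.

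**Figure D4:**
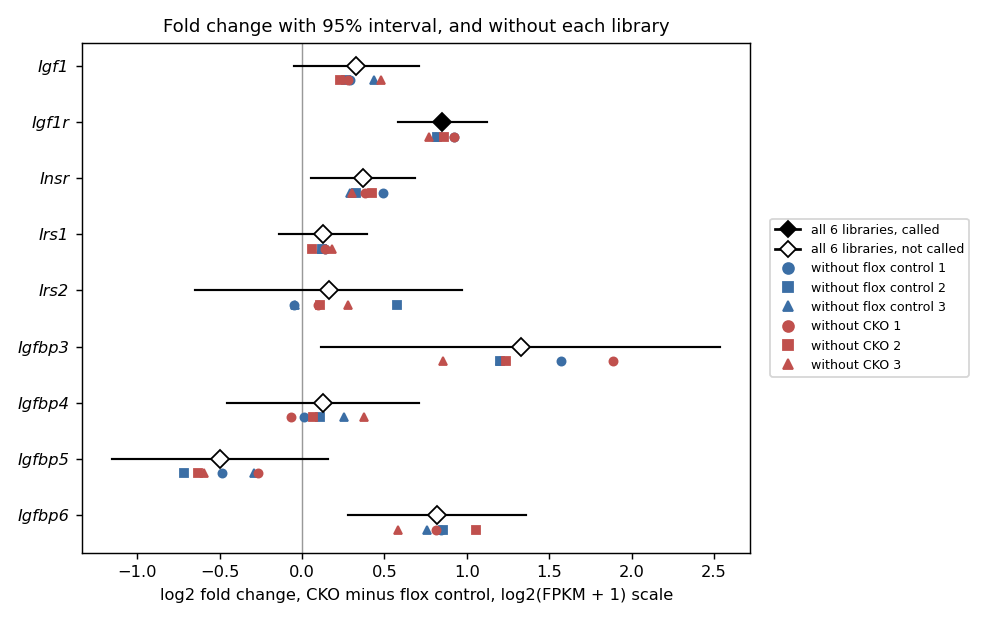
Log2 fold change of CKO minus flox control on the log2(FPKM + 1) scale (horizontal axis) for the 9 genes; diamonds and lines give the value and 95% interval from all 6 libraries, filled where called, and small symbols the value without each library. Igf1r is the filled diamond at 0.85, and the symbols for Irs2 and Igfbp4 fall on both sides of 0.

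By mean FPKM, the order in flox controls was Igfbp4, Igfbp5, Igfbp3, Insr, Irs2, Igfbp6, Igf1, Igf1r and Irs1. Ranges overlapped between the neighbours Igfbp4 and Igfbp5, Igfbp3 and Insr, Insr and Irs2, and Irs2 and Igfbp6, and did not between the other neighbours. In CKO libraries the order was Igfbp4, Igfbp3, Igfbp5, Insr, Igfbp6, Igf1r, Irs2, Igf1 and Irs1. There, ranges did not overlap between Igfbp6 and Igf1r and between Igf1 and Irs1, and overlapped between all other neighbours. Igf1r stood below Igf1 in every flox control, near it in CKO 1 and CKO 2, and above it in CKO 3.

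The genes most like Igf1r over the 6 libraries, by Pearson r of log2(FPKM + 1) among the genes tested, were Tmem199 (r = 0.9995), Dnajc14 (r = 0.998) and Fbxo38 (r = 0.996). All were called higher, with log2 fold changes of 0.40, 0.38 and 0.56 (limma adjusted p = 0.0266, 0.0275 and 0.023). These r values describe 6 libraries whose groups differ, and 6.9% of genes tested had r over 0.9. Among the members, r with Igf1r was 0.89 for Insr, 0.87 for Igfbp6 and 0.86 for Igfbp3, as a description over the same 6 libraries. For the other members r with Igf1r was 0.60 (Irs1), 0.51 (Igf1), 0.05 (Irs2), -0.04 (Igfbp4) and -0.48 (Igfbp5).

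The wider pathway was described with 12 lists of 129 further genes, of which 112 were tested. Of these 10 were called higher and 7 lower (15.2%, beside 11.2% of all genes tested), and 95 did not pass, with a median log2 fold change of 0.04. Leaving out 1 library gave 3 to 15 higher and 2 to 7 lower: 3 and 2 without flox control 1, 8 and 4 without flox control 2, 5 and 3 without flox control 3, 15 and 7 without CKO 1, 8 and 4 without CKO 2, and 7 and 3 without CKO 3. These lists were drawn up with earlier results of the same libraries known, so their counts are no independent evidence.

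**Figure D5:**
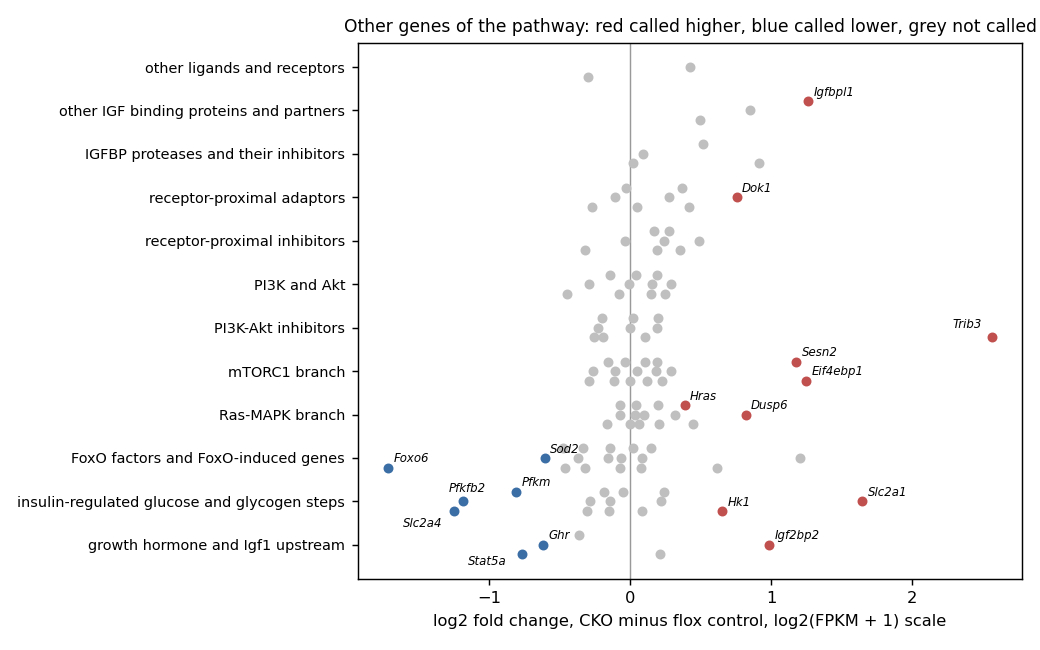
Log2 fold change of CKO minus flox control on the log2(FPKM + 1) scale (horizontal axis) for the 112 tested genes of the 12 pathway lists (rows); each point is a gene, red where called higher, blue where called lower and grey where not called, and called genes are named. Trib3 at 2.57 and Foxo6 at -1.72 are the outermost points. In the row of PI3K and Akt genes 0 of 11 are coloured, beside 11.2% called of all genes tested.

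Among other ligands and receptors, 2 of 5 genes were tested and 0 were called, beside 11.2% of all genes tested. Of the 2, 1 had an unadjusted limma p under 0.05, and voom called 0. Ins1 and Ins2, the insulin genes, were listed at 0 in every library. Igf2r, which encodes the receptor that clears IGF-II, measured 20.01 ± 0.981 and 27.4 ± 3.56 FPKM (limma adjusted p = 0.0645) without overlap, and passed without CKO 3 (0.0475). Igf2 measured 1.44 ± 0.221 and 1.007 ± 0.457 FPKM (limma adjusted p = 0.358). Gm49394, listed at 0, shares 62.8% of the Igf2 exon bases on the same strand.

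Of 5 further binding proteins and partners, 3 were tested and 1, Igfbpl1, was called higher (33.3%, beside 11.2% of all genes tested). Igfbpl1, an IGF binding protein-like gene, rose from 1.06 ± 0.557 to 3.92 ± 1.21 FPKM (log2 fold change 1.26, limma adjusted p = 0.0272). This gene no longer passed without flox control 1 (0.1), flox control 2 (0.0859), CKO 2 (0.0762) or CKO 3 (0.0809). Igfbp7, a binding protein of low IGF affinity, was the most abundant of these genes at 230, 285 and 263 FPKM across the flox controls, against 317, 534 and 595 FPKM across the CKO hearts. All CKO libraries were above the controls, and CKO 1 was the lowest of them, as it was for Igfbp3. Igfbp7 did not pass (limma adjusted p = 0.081), though it did without CKO 1 (0.0133). Igfals, which encodes the acid-labile subunit of the circulating IGF complex, measured 0.876 ± 0.252 and 1.64 ± 0.267 FPKM (0.0786). Igfals reached the mean level required for testing only through the CKO libraries. The other 5 liver markers summed to 0.0467 to 0.340 FPKM in flox controls and 0.180 to 0.821 FPKM in CKO libraries, which overlap, with 2 of them at 0 throughout.

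Of 8 genes for proteases that cleave IGF binding proteins and for inhibitors of those proteases, 4 were tested and 0 were called. The share called over all genes tested was 11.2%. Of the 4, 1 had an unadjusted limma p under 0.05, and voom called 0. With no filter on low values, Pappa, the PAPP-A gene, was called higher (0.0803 ± 0.0342 and 0.309 ± 0.0463 FPKM, log2 fold change 0.28, limma adjusted p = 0.0427). Stc1 and Stc2 encode stanniocalcins, which inhibit PAPP-A. Stc1 measured 1.198, 1.48 and 0.741 FPKM across the flox controls, against 1.67, 4.19 and 3.54 FPKM across the CKO hearts (limma adjusted p = 0.0762). It passed without CKO 1 (0.0121), the CKO library nearest to the controls. Stc2 measured 6.54 ± 1.17 and 10.1 ± 3.87 FPKM (limma adjusted p = 0.25), and Htra1, a secreted serine protease gene, 47.3 ± 4.27 and 50.7 ± 6.81 FPKM (0.704).

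Near the receptor, 1 of 8 tested adaptor genes was called (12.5%, beside 11.2% of all genes tested). Of 8 tested inhibitor genes 0 were called, beside the same 11.2%. Of these 8, 3 higher and 1 lower had an unadjusted limma p under 0.05, and voom called 1. Dok1, which encodes a docking protein of tyrosine kinases, rose from 2.73 ± 0.628 to 5.23 ± 0.303 FPKM (log2 fold change 0.75, limma adjusted p = 0.0206). Dok1 no longer passed without flox control 1 (0.0519), flox control 3 (0.0662), CKO 2 (0.0565) or CKO 3 (0.0662). Crk and Shc1, adaptor genes, measured 26.7 ± 0.884 and 36.3 ± 6.48 FPKM (limma adjusted p = 0.115) and 10.97 ± 0.524 and 13.6 ± 1.87 FPKM (0.162), and Crk passed without CKO 1 (0.0211). Ptpn1, the gene of the phosphatase PTP1B that dephosphorylates INSR, measured 7.16 ± 0.161 and 8.86 ± 0.778 FPKM (0.0977). Enpp1 measured 0.833 ± 0.138 and 1.33 ± 0.0747 FPKM (0.1, and 0.0339 with voom), and Socs3, a feedback inhibitor gene, 2.37 ± 0.180 and 3.79 ± 1.09 FPKM (0.117). Enpp1 was under 1 FPKM in every flox control and reached the mean level required for testing only through the CKO libraries.

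All 11 PI3K and Akt genes were tested and 0 were called, beside 11.2% of all genes tested. In a list this short, 0 calls lies near that share. Of the 11, 1 higher and 1 lower had an unadjusted limma p under 0.05, and voom called 0. Their fold changes lay between -0.45 and 0.29. Pik3r2, a regulatory subunit gene, measured 11.8 ± 0.583 and 9.47 ± 0.398 FPKM (limma adjusted p = 0.0672), Pdpk1, the PDK1 kinase gene, 4.21 ± 0.483 and 5.33 ± 0.280 FPKM (0.107), and Pik3r1 10.7 ± 3.18 and 7.33 ± 0.603 FPKM (0.204). Of 10 tested inhibitor genes of this branch, 1 was called higher (10%, beside 11.2% of all genes tested). Trib3, which encodes a pseudokinase reported to bind AKT, rose from 1.72 ± 0.284 to 16.2 ± 8.23 FPKM (log2 fold change 2.57, limma adjusted p = 0.0067), and its call held without each library. Phlpp1 (limma adjusted p = 0.122) and Inppl1 (0.218), phosphatase genes, had log2 fold changes of -0.23 and -0.26.

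In the mTORC1 branch, 2 of 16 genes rose (12.5%, beside 11.2% of all genes tested) and 14 did not pass. Eif4ebp1, which encodes the translation inhibitor 4E-BP1, measured 29.0, 28.0 and 27.0 FPKM across the flox controls, against 60.8, 58.6 and 87.1 FPKM across the CKO hearts (log2 fold change 1.25, limma adjusted p = 0.00897). The lowest CKO library was far above the highest control, and the call held without each library. Sesn2, a stress-induced inhibitor gene of mTORC1, rose from 2.26 ± 0.582 to 6.36 ± 1.11 FPKM (log2 fold change 1.18, limma adjusted p = 0.0107) and lost its call without flox control 1 (0.0519). Eif4e, whose product 4E-BP1 binds, measured 15.5 ± 0.875 and 12.5 ± 0.506 FPKM without overlap (0.071).

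In the Ras and MAPK branch, 2 of 14 genes rose (14.3%, beside 11.2% of all genes tested) and 12 did not pass. Dusp6, the gene of a phosphatase that turns off ERK, rose from 11.5 ± 1.78 to 20.8 ± 0.990 FPKM (log2 fold change 0.82, limma adjusted p = 0.0118) and lost its call without flox control 1 (0.051). Hras rose from 14.1 ± 0.860 to 18.8 ± 1.31 FPKM (log2 fold change 0.38, limma adjusted p = 0.045). Leaving out any library ended the Hras call, with adjusted p of 0.137, 0.085 and 0.146 without flox controls 1, 2 and 3 and 0.0576, 0.0857 and 0.119 without CKO 1, 2 and 3. Map2k1, the MEK1 gene, measured 18.5 ± 1.41 and 25.7 ± 3.78 FPKM (limma adjusted p = 0.0715) and passed without CKO 1 (0.0366).

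The next list holds 17 genes for FoxO factors, most of which AKT holds out of the nucleus, and for genes they induce. Of these, 2 fell (11.8%, beside 11.2% of all genes tested) and 15 did not pass. Gabarapl1, an autophagy gene of this list, was called higher with every library scaled to the same FPKM sum (log2 fold change 0.67, limma adjusted p = 0.0378) and without CKO 2 (0.86, 0.0326). Foxo6 measured 1.81, 2.48 and 5.51 FPKM across the flox controls, against 0.171, 0.354 and 0.127 FPKM across the CKO hearts (log2 fold change -1.72, limma adjusted p = 0.0193). All CKO libraries were far below all controls, which varied widely. The CKO values rest on 8, 18 and 6 reads, and Foxo6 reached the mean level required for testing only through the controls. With no filter on low values it did not pass (0.0522), and Foxo6 no longer passed without flox control 2 (0.0551) or CKO 3 (0.0615). Sod2, which encodes mitochondrial superoxide dismutase, stood at 51.5 ± 4.89 FPKM in controls and fell to 33.6 ± 4.31 FPKM (log2 fold change -0.61, limma adjusted p = 0.0317). Sod2 no longer passed without flox control 1 (0.117), flox control 2 (0.0947), flox control 3 (0.0643), CKO 1 (0.0593) or CKO 2 (0.0842). Bnip3, a mitophagy receptor gene, measured 32.5 ± 15.5 and 74.9 ± 28.5 FPKM (0.105) and passed without CKO 1 (0.0475).

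Of 14 tested genes for insulin-regulated glucose and glycogen steps, 2 rose, 3 fell and 9 did not pass (35.7% called, beside 11.2% of all genes tested). Slc2a4, which encodes the insulin-responsive transporter GLUT4, measured 74.7, 73.4 and 63.6 FPKM across the flox controls, against 26.6, 27.9 and 32.7 FPKM across the CKO hearts (log2 fold change -1.25, limma adjusted p = 0.00467). The highest CKO heart was far below the lowest control, and the Slc2a4 call held without each library. Slc2a1, which encodes GLUT1, a transporter that does not need insulin, ran from 2.63 to 3.64 FPKM among controls and from 7.47 to 16.8 FPKM among CKO hearts (log2 fold change 1.64, limma adjusted p = 0.0149). Pfkfb2, a gene of the enzyme that makes an activator of glycolysis, fell from 7.22 ± 1.98 to 2.53 ± 0.0679 FPKM (log2 fold change -1.19, limma adjusted p = 0.0132). Pfkm, which encodes muscle phosphofructokinase, was lower in CKO hearts at 138 ± 25.2 FPKM than in controls at 239.5 ± 7.78 FPKM (log2 fold change -0.81, limma adjusted p = 0.0273). Hk1 and Pfkm lie outside the rule for named genes and were added after their values were seen, so that all 5 calls are named. Hk1, a hexokinase gene, rose from 25.2 ± 2.19 to 40.2 ± 3.42 FPKM (log2 fold change 0.65, limma adjusted p = 0.016). Slc2a1 lost its call without flox control 1 (0.0623), flox control 3 (0.0596) or CKO 3 (0.0535), and Pfkfb2 without flox control 1 (0.0584). Hk1 lost its call without flox control 1 (0.0757) or 3 (0.0661), and Pfkm without flox control 1 (0.107), 2 (0.0798), 3 (0.0818) or CKO 3 (0.0531).

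Of 5 tested genes in a list of growth hormone signaling and IGF2 mRNA-binding protein genes, 1 rose, 2 fell and 2 did not pass. The share called was 60%, beside 11.2% of all genes tested. Ghr, the growth hormone receptor gene, measured 16.9, 12.7 and 16.2 FPKM across the flox controls, against 9.61, 9.07 and 9.88 FPKM across the CKO hearts (log2 fold change -0.62, limma adjusted p = 0.0252). Stat5a, a transcription factor gene that acts after this receptor, fell from 5.46 ± 0.675 to 2.81 ± 0.598 FPKM (log2 fold change -0.77, limma adjusted p = 0.0212). Levels of Ghr and Stat5a in all CKO libraries lay below those of all controls. Igf2bp2, which encodes an RNA-binding protein first found on IGF2 messenger RNA, rose from 1.33 ± 0.337 to 3.61 ± 0.594 FPKM (log2 fold change 0.98, limma adjusted p = 0.0124) and lost its call without flox control 3 (0.0504). Ghr lost its call without flox control 1 (0.0947), flox control 3 (0.089), CKO 2 (0.0726) or CKO 3 (0.0648), and Stat5a without the same 4 libraries (0.0823, 0.0737, 0.0525 and 0.0656).

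Annotated neighbours share exon bases with some of these genes, which makes their levels uncertain to that extent. The share was 28.3% for Gabarapl1 (1700101I11Rik, opposite strand), 22.3% for Bnip3 (antisense Gm45507, listed at 0) and 18.8% for Inppl1 (antisense Gm10602). It was 17.4% for Pfkfb2 (Gm29427, same strand) and 10.2% for Pfkm (Gm26513, same strand).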

How the data were processed

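Heart RNA of 6 mouse libraries was analysed in groups taken from their titles. The authors deposited an FPKM value for each gene and library. CASAVA, HISAT2 2.0.5, featureCounts 1.5.0-p3, DESeq2 1.20.0 and build GRCm38.p6 are named in the submitters' processing notes, without roles. Poly-T selection and 150 bp paired reads are described per the labels' protocols, and strand marking is not. FPKM times gene length gave whole reads for 100% of values, within 0.001. The read total by which the FPKM values were scaled was not the number of reads assigned to genes. It was 19457600 against 17872221 in CKO 2, and 18120300 against 19360428 in CKO 3. The members and lists were chosen with earlier results of these data known.

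The 12144 genes averaging 1 FPKM or more entered limma 3.58.1 (R 4.3.3) as log2(FPKM + 1), comparing genotypes with trended variances, and p-values were adjusted by Benjamini-Hochberg. This scale understates changes of low genes. The 9 members were also compared with exact two-sided permutation tests, each over 20 arrangements. The procedure was tested on simulated data. Alternatives covered the pseudocount (0.1), filter (none, or 5 FPKM), scaling, variance moderation, voom, the replicate number as a block and each library left out. Genes named are the members, Ythdc1, the 3 genes of smallest adjusted p in each list, called genes of the receptor-near lists, and the 3 genes most like each called member. Pappa and Gabarapl1, each called under an alternative setting, are named outside this rule, as are Hk1, Pfkm and the insulin genes. Grb10 (higher, limma adjusted p = 0.0321) and Stat5b (lower, 0.0421) also gained calls, both without CKO 1. Loci and overlaps come from GENCODE M21. Of 11 marker lists, the skeletal muscle list summed to 0.811 to 2.02 FPKM. The endothelial, pericyte and smooth muscle, epicardial, adipocyte and erythroid sums overlapped between groups. Tie1 (of 10 tested endothelial markers) and Abcc9 (of 9 tested pericyte and smooth muscle markers) were called lower, beside 5.49% of all genes tested. Fold changes were positive for 4 and negative for 6 endothelial markers, and positive for 4 and negative for 5 pericyte and smooth muscle markers. Python 3.11.15, numpy 2.4.6, pandas 2.3.3, scipy 1.17.1 and matplotlib 3.10.9 were used for tables and figures.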

Additional observations from a re-analysis of the deposited data

How the results depend on the processing

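Over 14 alternatives, Igf1r stayed called as higher wherever it was tested, and Insr, Irs1, Irs2, Igf1, Igfbp4 and Igfbp5 stayed uncalled; Igf1, Igf1r and Irs1, with means under 5 FPKM, had no value at that filter. Igfbp6 passed after scaling to the same FPKM sum (limma adjusted p = 0.0196). Leaving out 1 library gave adjusted p of 0.0166 to 0.317 for Igfbp3 and 0.0297 to 0.178 for Igfbp6. Counts of called genes were 798 with no filter, 715 with the replicate block, and 315 to 1490 without 1 library, against 1358. Pathway genes called lower numbered 2 with no filter, and 6 higher and 4 lower at the 5 FPKM filter, which tests fewer genes; without 1 library they were 3 to 15 higher and 2 to 7 lower. The Igf1r to Insr difference was 0.48 on the log2 scale with 1 FPKM added. The other causes were not tested. Calls of Pappa (no filter) and Gabarapl1 (same FPKM sum) were gained. Calls of Dok1, Foxo6, Ghr, Hras, Igfbpl1, Pfkm, Sod2 and Stat5a were lost with no filter, and those of Ghr and Hras with the same FPKM sum.

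Deviations of same-numbered libraries from their group means correlated at 0.139, 0.0597 and -0.00548, with the best match at the own number in 2 of 3. Whether same-numbered libraries share more than a number cannot be told from these values. With the replicate block Igf1r had a limma adjusted p of 0.0369, and calls of Hk1, Hras, Pfkm and Sod2 were lost. With 3 libraries a group, upper interval bounds of the uncalled members run from log2 fold changes of 0.16 (Igfbp5) to 2.54 (Igfbp3), and whether the replicates differ beyond technical spread rests on the labels.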

Other observations

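The letters GGACT, part of the sequence context in which N6-methyladenosine is most often placed, were counted in the longest GENCODE M21 coding transcript of each gene. They occurred 14 times in Igf1r (1.23 per kb), 13 times in Insr (1.39 per kb), 12 times in Irs1 (1.31 per kb), 11 times in Irs2 (1.74 per kb) and 3 times in Igfbp6 (2.70 per kb). Igfbp4 held 6 (1.57 per kb) and Igfbp5 held 7 (1.17 per kb). Igf1 held 2 (0.284 per kb) and Igfbp3 held 1 (0.413 per kb), the lowest densities of the 9. The median over 10858 tested genes was 1.05 per kb, and 7 of the 9 genes lay above it. A match is a run of letters and not a modified site, and the modification itself was not analysed here.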
